A study of Mus musculus with 11 samples.

Results

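The 3 Puma-/-p21-/-Zmat3-/- mice (triple knockout, TKO) were compared with the 4 Zmat3-/- mice. The question was how the RNA of thymocytes that lack ZMAT3 differs when Puma and p21 are lost as well. The mice were chosen by the genotype in their labels, 7 of the 11 mice sequenced, and the 4 wt mice of the same experiment serve as a reference level. All were 8 to 12 weeks old, on a C57BL/6-WEHI background, and were not treated. The TKO mice came from crosses of Zmat3-/- with Puma-/-p21-/- mice, so both groups carry the Zmat3 deletion, and all deletions are present in every tissue. The labels do not say whether any of the mice were littermates. With this design, loss of Puma and p21 cannot be told apart from other inherited differences between the groups, such as DNA linked to the targeted genes. RNA was taken in bulk from thymocytes, and no sort is described for it, so a smaller number of cells of a type and less RNA per cell cannot be told apart. Of the 54418 genes in the table, 13124 were tested, 713 of them on chromosome 17, where Cdkn1a lies, and 12411 elsewhere.

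ZMAT3 is an RNA-binding protein that takes part in splicing, and its gene, Bbc3 (PUMA) and Cdkn1a (p21) are all switched on by TRP53. PUMA is a BH3-only protein that binds the pro-survival members of the BCL-2 family and so sets off the mitochondrial death pathway, which removes thymocytes after DNA damage. p21 binds cyclin-dependent kinases and arrests the cell cycle after the same signal.

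Total counts were 25230325 to 43253895 in the Zmat3-/- mice and 38937426, 17669715 and 80207003 in TKO mice 1 to 3, and levels are given as CPM, the counts scaled to library size with TMM factors. Across tested genes, which are not independent replicates, the log2 levels of pairs of mice correlated at 0.985 to 0.991 within the Zmat3-/- group, at 0.971 to 0.984 within the TKO group and at 0.972 to 0.986 between the groups. The labels give no sex. Xist was at 1108 and 1355 CPM in Zmat3-/- mice 1 and 2 and at 1508 CPM in TKO mouse 1, and between 0.722 and 2.21 CPM in the other 4 mice of the comparison, so both kinds of mouse are present in both groups. Of the wt mice, 1 and 2 were at 507 and 616 CPM and 3 and 4 at 1.70 and 2.59 CPM. The same wt pairs also lay apart in other genes, such as Rps2 (1507 and 1062 against 451 and 486 CPM) and Birc5 (209 and 110 against 74.8 and 73.6 CPM). What sets these pairs apart was not tested. Nothing in the labels says whether RNA was prepared on 1 or several days.

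The transcript of Cdkn1a was lower in the TKO mice and was still counted. Cdkn1a (chromosome 17 of GRCm38, 29090976 to 29100727, plus strand) was at 8.69, 7.72, 4.79 and 5.19 CPM in Zmat3-/- mice 1 to 4 and at 3.58, 3.54 and 2.23 CPM in TKO mice 1 to 3. The wt mice, at 8.25, 10.3, 3.53 and 4.23 CPM, overlapped the TKO mice. All TKO mice lay below all Zmat3-/- mice, a lack of overlap found in 5.65% of all tested genes (3.05% higher and 2.61% lower in TKO), and the Zmat3-/- mice with high Xist were the upper pair. The log2 fold change (log2FC, TKO over Zmat3-/-) was -1.12 with a standard error of 0.273, and it missed the threshold over all genes (adjusted p = 0.384, edgeR), but passed with DESeq2 (adjusted p = 0.0175) and in edgeR without a filter on low counts (adjusted p = 0.0164). A two-sided exact permutation test of the log2 levels gave p = 0.0286, the smallest that 3 against 4 mice allow.

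Bbc3 (chromosome 7, 16308393 to 16318205, plus strand) was at 17.4, 15.3, 16.7 and 19.97 CPM in the Zmat3-/- mice and at 13.1, 15.8 and 11.7 CPM in the TKO mice. TKO mouse 2 lay within the Zmat3-/- range, and the difference did not pass (log2FC -0.38, SE 0.134, adjusted p = 0.983 from edgeR, exact permutation p = 0.0857). The wt mice, at 16.8 to 19.97 CPM of Bbc3, all lay above the TKO mice. Zmat3, which is deleted in both groups by their labels, was still counted. It was at 5.34 to 6.91 CPM in the Zmat3-/- mice and at 7.39 to 8.18 CPM in the TKO mice, against 9.93 to 27.3 CPM in the wt mice. The 2 mutant groups differed by a log2FC of 0.36 (SE 0.145, adjusted p = 0.983 from edgeR, exact permutation p = 0.0571). The table gives 1 value per gene, so reads from a part of a gene that an allele leaves in place are counted with the rest.

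**Figure D1:**
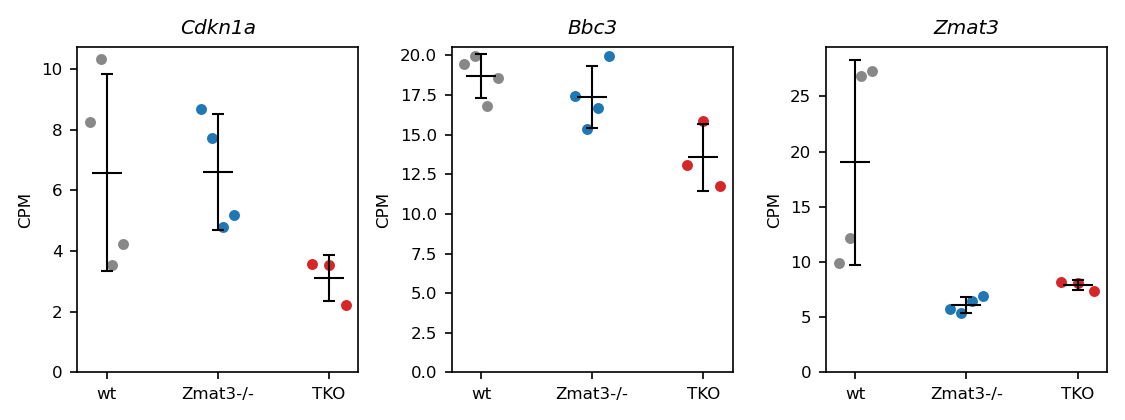
Level (CPM) of Cdkn1a, Bbc3 and Zmat3 in each mouse (points), with the mean (bar) and SD (whiskers) of the 4 wt, 4 Zmat3-/- and 3 TKO mice. The TKO points of Cdkn1a, at 2.23 to 3.58 CPM, lie below all 4 Zmat3-/- points, those of Bbc3 overlap the Zmat3-/- range, and those of Zmat3 lie a little above it.

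The genes next to the targeted genes did not pass the test. Srsf3, a splicing factor upstream of Cdkn1a, had a log2FC of -0.01 (SE 0.0777), and Rab44 on its other side 0.17 (SE 0.197). Beside Bbc3, Ccdc9 had -0.24 (adjusted p = 0.791 from edgeR) and Sae1, a subunit of the SUMO-activating enzyme, 0.00. Beside Zmat3, Skil had 0.03 and Pik3ca, the catalytic subunit of a PI3 kinase, 0.10.

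Of the 13124 tested genes, 29 passed the test at an adjusted p under 0.05 (0.221%), 19 higher (0.145%) and 10 lower (0.0762%) in the TKO mice, and 590 had an unadjusted p under 0.05 (4.5%). Chromosome 17 held 19 of the 29, which is 2.66% of its 713 tested genes, 10 of them higher and 9 lower in TKO. The other chromosomes held 10, which is 0.0806% of 12411 tested genes, 9 of them higher and 1 lower. With DESeq2 the counts were 38 on chromosome 17 and 35 elsewhere, 27 of the 35 higher and 8 lower. With an absolute log2FC above 1.5 as well, 16 genes remained (0.122%), 13 higher (0.0991%) and 3 lower (0.0229%), 8 on chromosome 17 and 8 elsewhere. An unadjusted p under 0.05 was found for 11.6% of the tested genes of chromosome 17 and for 4.09% of the others. Since the samples are mice whose number limits the test, a gene that did not pass is not shown to be equal. In simulated counts with the same mice and genes, edgeR recovered 80 of 100 genes changed 2-fold and 97 of 100 changed 4-fold. That simulation changed more genes than passed here and took its spread from edgeR's own estimates. The real test may therefore recover a smaller share.

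The genes of chromosome 17 that passed lay on both sides of Cdkn1a, between Vmn2r97, 10.2 Mb before it, and AC165951.1, 1.83 Mb after it. These limits depend on the test, and with DESeq2 the genes that passed reached from -23.7 Mb (Tmem242) to 28.1 Mb (Tnfsf14). Within 5 Mb of Cdkn1a 10 of 214 tested genes passed (4.67%), within 10 Mb 18 of 366 (4.92%) and within 20 Mb 19 of 481 (3.95%). Of the 232 tested genes of the chromosome that lie farther away, 0 passed with edgeR and 4 had an unadjusted p under 0.05 (1.72%). With DESeq2 2 of them passed, Tmem242 and Tnfsf14 (adjusted p = 0.0443 for both), and with 1 surrogate variable in edgeR 1 passed, Gm7334 at 21.6 Mb (adjusted p = 2.7e-04). In steps of 5 Mb, the 6 genes that passed in the last step before Cdkn1a, among 120 tested, were all lower in TKO, and the 4 that passed in the first step after it, among 94 tested, were all higher. In the step from 10 to 5 Mb before it, 8 of 40 tested genes passed, 6 higher and 2 lower. Around Bbc3 on chromosome 7, 0 of 327 tested genes within 20 Mb passed with edgeR, 12 had an unadjusted p under 0.05 (3.67%) and 1 passed with DESeq2. Around Zmat3 on chromosome 3, which is deleted in both groups, 0 of 102 passed with edgeR, 5 had an unadjusted p under 0.05 (4.9%) and 1 passed with DESeq2.

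**Figure D2:**
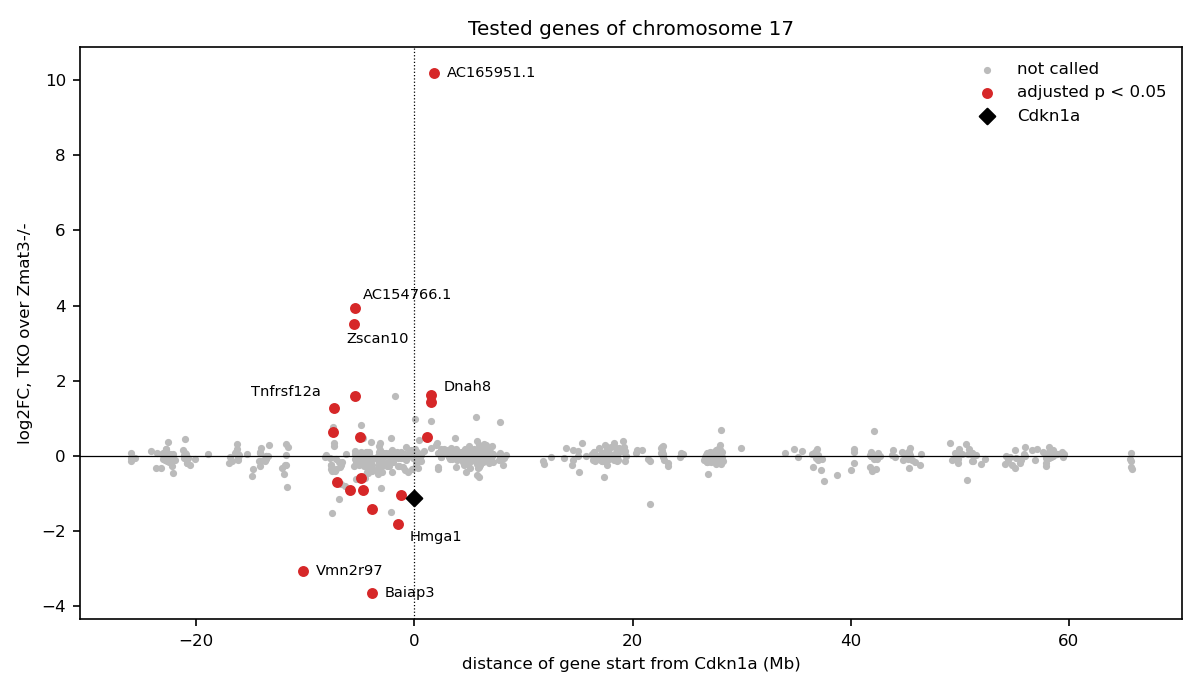
Log2FC of TKO over Zmat3-/- mice for the 713 tested genes of chromosome 17 against the distance of the gene's start from that of Cdkn1a (Mb). Red points passed the edgeR test, grey points did not, the diamond is Cdkn1a, and genes with an absolute log2FC above 1.5 are named. The 19 red points lie between -10.2 and 1.83 Mb, and the fitted value of AC165951.1 rests on Zmat3-/- mice with almost no counts.

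Among the 9 genes of chromosome 17 that fell, the largest change was in Baiap3, a protein of dense-core vesicle traffic. Baiap3 (25242659 to 25256364, minus strand) was at 32.4, 30.6, 37.7 and 40.9 CPM in the Zmat3-/- mice and at 2.56, 2.32 and 3.36 CPM in the TKO mice. The groups were far apart, 12.9-fold in their means (log2FC -3.65, SE 0.16, adjusted p = 9.5e-07), and the wt mice, at 26.4 to 31.2 CPM, lay beside the Zmat3-/- mice. Vmn2r97 (18914300 to 18958087, plus strand), of the vomeronasal receptor family, was at 23.4 to 25.8 CPM in the Zmat3-/- mice and at 3.76, 3.19 and 2.26 CPM in the TKO mice (log2FC -3.05, SE 0.174, adjusted p = 8.0e-06). Its level in the wt mice was uneven, 20.9 and 22.98 CPM in mice 1 and 2 and 66.6 and 67.4 CPM in mice 3 and 4, the pair with low Xist. The Zmat3-/- mice did not repeat this split, at 23.4 and 25.8 CPM with high Xist and at 24.5 and 25.5 CPM with low Xist.

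Hmga1 (27556497 to 27563674, plus strand), a chromatin protein that binds AT-rich DNA and is abundant in dividing cells, was at 219, 215, 164 and 148 CPM in the Zmat3-/- mice and at 49.7, 49.2 and 61.2 CPM in the TKO mice (log2FC -1.81, SE 0.147, adjusted p = 1.7e-04). Gnptg (25233331 to 25240124, minus strand) encodes a subunit of the enzyme that puts the mannose 6-phosphate tag on lysosomal enzymes. It was at 25.6 to 27.1 CPM in the Zmat3-/- mice and at 11.6, 9.75 and 8.74 CPM in the TKO mice (log2FC -1.41, SE 0.114, adjusted p = 1.7e-04). Gnptg shares 49.5% of its exon bases with Unkl on the opposite strand, and the labels name no strand setting, so reads of the pair cannot be told apart. Unkl itself was at 56.2 to 66.1 CPM in the Zmat3-/- and at 42.9 to 49.3 CPM in the TKO mice.

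Anks1 (27909306 to 28062775, plus strand), an adaptor of Eph receptors, was at 95.9 to 101 CPM in the Zmat3-/- mice and at 44.3, 49.7 and 49.3 CPM in the TKO mice. Its level was 2.04-fold lower (log2FC -1.04, SE 0.0645, adjusted p = 1.6e-05). Rnps1 (24414565 to 24425901, plus strand), which joins the exon junction complex on spliced mRNA, was at 104 to 127 CPM in the Zmat3-/- mice and at 59.7, 58.7 and 69.2 CPM in the TKO mice (log2FC -0.92, SE 0.0893, adjusted p = 8.4e-04). Atp6v0c (24163866 to 24169702, minus strand), the proton-channel subunit of the vacuolar ATPase, was at 128 to 135 CPM and at 84.9 to 90.6 CPM (log2FC -0.59, SE 0.0582, adjusted p = 8.8e-04). These 3 genes had no overlap between the groups.

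The other genes that fell were zinc finger genes, with starts at -5.92 (Zfp40) and -7.13 Mb (Zfp943) from that of Cdkn1a. Zfp40 was at 17.7 to 24.7 CPM in the Zmat3-/- mice and at 9.84 to 11.5 CPM in the TKO mice (log2FC -0.90, SE 0.139, adjusted p = 0.0309). Zfp943 was at 28.1 to 31.8 CPM and at 17.7 to 21.7 CPM (log2FC -0.68, SE 0.1, adjusted p = 0.0215). In the same stretch Zfp983 and Zfp760 were higher in the TKO mice, Zfp983 at 34.0 to 35.9 CPM against 19.3 to 23.5 CPM (log2FC 0.65, SE 0.0918, adjusted p = 0.0176) and Zfp760 at 7.87 to 10.5 CPM against 3.18 to 4.05 CPM (log2FC 1.29, SE 0.168, adjusted p = 0.0107). Genes of such families can share sequence, and how Salmon divided shared reads is not visible in the counts. Of the wt mice, Zfp760 was at 3.70 and 5.33 CPM in mice 1 and 2 and at 10.1 and 12.2 CPM in mice 3 and 4, a spread that covers the TKO mice. The mice with low Xist were the upper pair in the wt and Zmat3-/- groups. Of the TKO mice, mouse 1, with high Xist, was the highest.

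Among the 10 genes of chromosome 17 that rose, Glo1 and Dnah8 had the highest levels together with a rise of more than 1 on the log2 scale. Glo1 (30584936 to 30626871, minus strand) encodes glyoxalase I, which clears methylglyoxal, a toxic by-product of glycolysis. It was at 79.0, 75.4, 80.7 and 79.1 CPM in the Zmat3-/- mice and at 213, 219 and 215 CPM in the TKO mice, 2.74-fold higher (log2FC 1.44, SE 0.057, adjusted p = 3.8e-07). The wt mice, at 61.0 to 99.5 CPM, enclosed the Zmat3-/- mice. Its neighbour Dnah8 (30624354 to 30877365, plus strand), a heavy chain of the dynein of cilia and flagella, was at 160, 155, 183 and 178 CPM in the Zmat3-/- mice and at 484, 511 and 581 CPM in the TKO mice (log2FC 1.63, SE 0.087, adjusted p = 4.7e-06). The wt mice were at 54.0 and 63.6 CPM in mice 1 and 2 and at 218 and 210 CPM in mice 3 and 4, the pair with low Xist. The annotated bodies of Glo1 and Dnah8 overlap on opposite strands, with 0 exon bases in common.

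AC165951.1 (30920338 to 30963220, minus strand), annotated as an antisense RNA over Glp1r, was at 12.4, 13.5 and 13.7 CPM in the TKO mice. In the Zmat3-/- mice it was at 0 in mice 1, 3 and 4 and at 0.0326 CPM in mouse 2. Against 3 counts in the smallest Zmat3-/- library the TKO level was at least 105-fold higher (adjusted p = 2.3e-07). Glp1r, on the other strand and with 0 exon bases in common, was at 0.142 to 0.67 CPM in the Zmat3-/- and at 0.358 to 0.77 CPM in the TKO mice.

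Zscan10 (23600856 to 23611019, plus strand), a transcription factor known from pluripotent cells, was at 0.641, 0.489, 0.432 and 0.586 CPM in the Zmat3-/- mice and at 7.72, 6.62 and 4.40 CPM in the TKO mice (log2FC 3.51, SE 0.276, adjusted p = 1.5e-04). AC154766.1, a processed pseudogene close to it (23619236 to 23620900, minus strand), was at 0.299 to 0.377 CPM and at 7.21, 4.70 and 3.39 CPM (log2FC 3.95, SE 0.324, adjusted p = 1.7e-04). In both genes TKO mouse 1 was the highest and TKO mouse 3 the lowest, and the groups did not overlap. Tnfrsf12a, the receptor of the cytokine TWEAK, was at 2.97, 3.29, 5.09 and 4.86 CPM in the Zmat3-/- mice and at 12.9, 13.8 and 9.89 CPM in the TKO mice (log2FC 1.58, SE 0.219, adjusted p = 0.016).

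Pdpk1, the kinase that activates AKT, was at 226 to 245 CPM in the Zmat3-/- mice and at 310 to 361 CPM in the TKO mice (log2FC 0.50, SE 0.0714, adjusted p = 0.0188). Btbd9, a BTB-domain protein, was at 33.8 to 37.4 CPM and at 49.7 to 56.9 CPM (log2FC 0.51, SE 0.0731, adjusted p = 0.0176). These were the smallest rises that passed. When each mouse was left out in turn, 12 of the 19 genes of chromosome 17 passed in all 7 fits. The 7 that did not were Zfp760, lost without Zmat3-/- mouse 2 (adjusted p = 0.0577, edgeR) or TKO mouse 1 (0.063), Tnfrsf12a, lost without either of these mice (0.066 and 0.104) or TKO mouse 2 (0.0603), Zfp983, lost without the same 3 mice (0.0581 to 0.104), and Zfp40, Zfp943, Pdpk1 and Btbd9, each lost in 5 or 6 of the 7 fits.

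**Figure D3:**
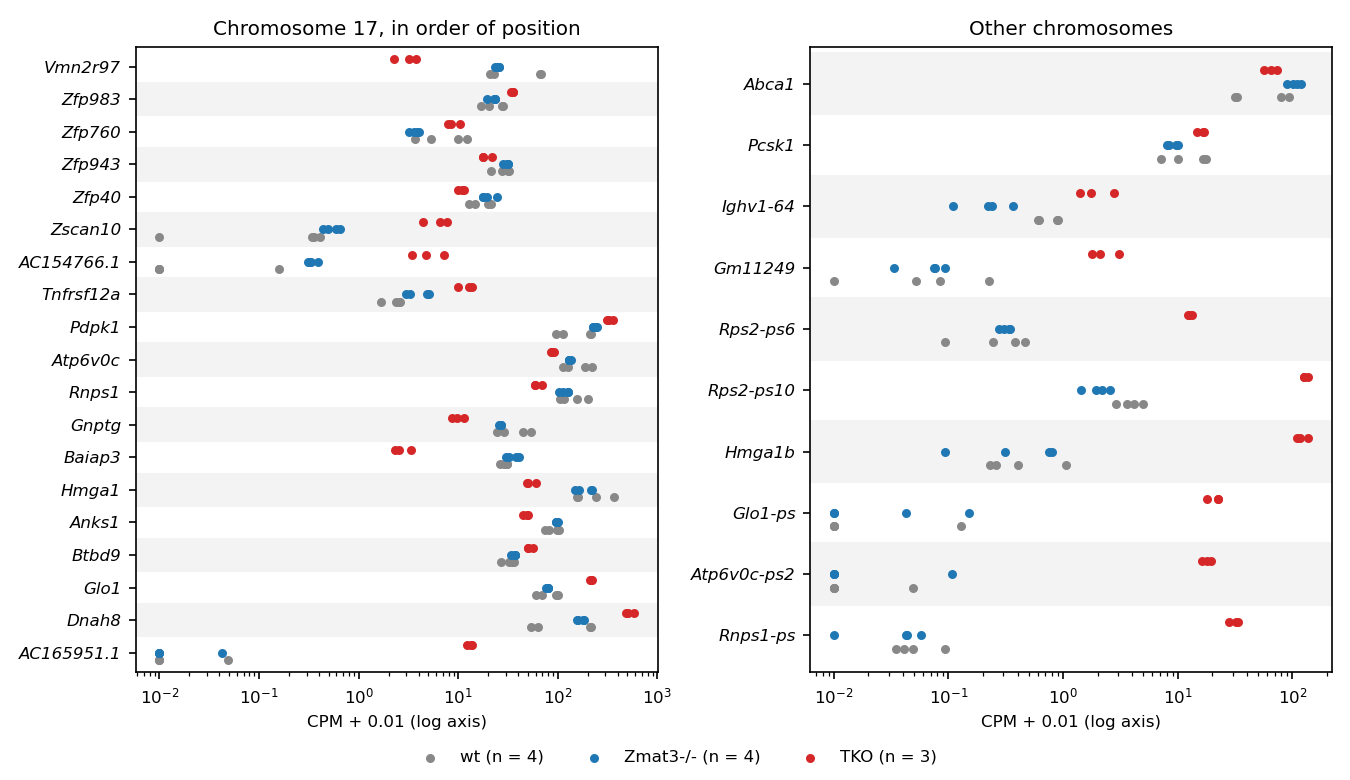
Level of each gene that passed the test in every mouse, as CPM plus 0.01 on a log axis, on chromosome 17 in order of position (left, 19 genes) and on other chromosomes (right, 10 genes). Points are single mice of the wt (grey), Zmat3-/- (blue) and TKO (red) groups, and points at 0.01 are mice with 0 counts. The red points lie apart from the blue points in every row, and for 7 of the 10 genes on the right the Zmat3-/- mice lie below 3 CPM and at least 10-fold below the TKO mice.

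Of the 10 genes that passed on other chromosomes, 7 are processed copies of genes of chromosome 17: Rnps1-ps, Atp6v0c-ps2, Glo1-ps, Hmga1b, Rps2-ps10, Rps2-ps6 and Gm11249. Among the 35 that passed with DESeq2, 7 shared at least 50% of their 31-base sequence words with genes of chromosome 17. Processed copies arise when an mRNA is reverse transcribed and inserted elsewhere, and so they lack introns. Cut into words of 31 bases, Atp6v0c-ps2 shared 92.9% of its words with Atp6v0c, Hmga1b 92.7% with Hmga1, Glo1-ps 86.5% with Glo1 and Rnps1-ps 82.2% with Rnps1. Of Rps2, a protein of the small ribosomal subunit, Rps2-ps10 shared 82.1%, Rps2-ps6 73.3% and Gm11249 59.5%. Over the tested genes off chromosome 17, 16 of 12385 that did not pass and have a transcript in GENCODE M21 shared at least 50% of their words with genes of chromosome 17 (0.129%). This share is not a like background for the copies that passed, since most of these were tested only because they were counted in the TKO mice.

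The likeness of parent and copy is shown by 60 bases of coding sequence, in GENCODE M21 transcripts on GRCm38, from the stretch within 1 exon where the pair differ most. Capitals mark the bases that differ. Over all aligned coding bases, Rnps1 and Rnps1-ps were identical at 838 of 843, Glo1 and Glo1-ps at 549 of 552, Atp6v0c and Atp6v0c-ps2 at 464 of 465, and Hmga1 and Hmga1b at 354 of 354 with 1 gap. The stretch of Rnps1 lies at chr17:24422150-24422209 (plus strand, exon 6) and that of Rnps1-ps at chr6:7982874-7982933 (minus strand), and they differ by T39C and T60C, counted from 1 at the 5′ end with the parent's base first.
Rnps1: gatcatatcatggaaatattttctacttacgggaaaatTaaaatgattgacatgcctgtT
Rnps1-ps: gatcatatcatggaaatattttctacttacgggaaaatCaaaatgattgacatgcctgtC
The stretch of Glo1 lies at chr17:30612492-30612551 (minus strand, exon 1 of the transcript) and that of Glo1-ps at chr2:35340409-35340468 (plus strand), and they differ by G9A.
Glo1: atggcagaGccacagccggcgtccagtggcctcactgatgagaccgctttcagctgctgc
Glo1-ps: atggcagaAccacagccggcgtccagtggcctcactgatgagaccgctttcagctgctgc
The stretch of Atp6v0c lies at chr17:24164823-24164882 (minus strand, exon 2) and that of Atp6v0c-ps2 at chr6:37806165-37806224 (plus strand), and they differ by T32C.
Atp6v0c: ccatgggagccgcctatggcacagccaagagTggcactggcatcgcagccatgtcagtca
Atp6v0c-ps2: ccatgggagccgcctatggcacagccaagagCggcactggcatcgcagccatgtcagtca
The stretch of Hmga1 lies at chr17:27559569-27559628 (plus strand, exon 2 of the transcript) and that of Hmga1b at chr11:120762889-120762948 (plus strand), with 0 differences.
Hmga1: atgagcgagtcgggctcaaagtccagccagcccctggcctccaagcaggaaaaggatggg
Hmga1b: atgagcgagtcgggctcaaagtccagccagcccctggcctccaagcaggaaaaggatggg

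The copies were near 0 in the Zmat3-/- mice and well counted in the TKO mice. All but Rps2-ps10 met the filter on low counts only through the TKO mice. Such a copy could thus be tested only if it was higher in TKO, which bears on the direction and number of the calls. Hmga1b was at 0.736, 0.782, 0.299 and 0.0837 CPM in the Zmat3-/- mice and at 109, 117 and 136 CPM in the TKO mice (log2FC 7.85, SE 0.267, adjusted p = 1.3e-07). Rnps1-ps had at most 3 counts in each Zmat3-/- mouse and 27.8, 32.2 and 33.1 CPM in the TKO mice, at least 247-fold higher than 3 counts in the smallest Zmat3-/- library. Atp6v0c-ps2, at 16.3, 19.4 and 18.04 CPM in the TKO mice, was at least 143-fold higher on the same scale. Glo1-ps was at 0.142, 0.0326, 0 and 0 CPM in the Zmat3-/- mice and at 17.8, 22.2 and 22.5 CPM in the TKO mice. These bounds cover counting error only.

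The copies of Rps2 had the same pattern. Rps2-ps10 (chromosome 18) was at 1.43 to 2.54 CPM in the Zmat3-/- mice and at 126, 137 and 125 CPM in the TKO mice (log2FC 5.98, SE 0.14, adjusted p = 6.5e-09). Rps2-ps6 (chromosome 14) was at 0.266 to 0.332 CPM and at 12.5, 13.3 and 12.2 CPM (log2FC 5.34, SE 0.181, adjusted p = 1.3e-07). Gm11249 (chromosome 4) was at 3.04, 2.09 and 1.77 CPM in the TKO mice, at least 18.3-fold higher than 3 counts in the smallest Zmat3-/- library. The copies Rps2-ps5 and Rps2-ps13 were at 0 to 0.232 CPM in all 7 mice and were not tested. In the wt mice, Rps2-ps10 was at 2.89 to 4.92 CPM, and Hmga1b at 0.222 to 1.04 CPM.

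For the 5 parents, the copies took a share of the family's summed level in the TKO mice that they did not have in the Zmat3-/- mice, where it was at most 0.439% for Rps2. In the TKO mice the copies made up 68.7 to 70.4% of the sum for Hmga1, 31.8 to 35.4% for Rnps1, 20.4 to 22.5% for Rps2, 16.1 to 17.6% for Atp6v0c and 7.71 to 9.49% for Glo1. The Hmga1 family summed to 187 ± 36.0 CPM (SD, n = 4) in the Zmat3-/- and to 174 ± 20.3 CPM (SD, n = 3) in the TKO mice, and the groups overlapped. The Rps2 family, with the 4 copies that carry its name, summed to 681 ± 74.4 CPM (SD, n = 4) and 655 ± 35.9 CPM (SD, n = 3), again with overlap.

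With the copies added to their parents before the edgeR test, Hmga1 no longer passed (log2FC -0.12, adjusted p = 0.983), nor did Rnps1 (log2FC -0.33, adjusted p = 0.517) or Atp6v0c (log2FC -0.32, adjusted p = 0.14). The sums of Rnps1 (87.5 to 102 CPM in TKO, 104 to 127 CPM in Zmat3-/- mice) and of Atp6v0c (101 to 110 and 128 to 135 CPM) still did not overlap between the groups. Glo1 still passed (log2FC 1.58, adjusted p = 5.8e-07). Its family summed to 78.6 ± 2.24 CPM (SD, n = 4) in the Zmat3-/- and to 236 ± 5.30 CPM (SD, n = 3) in the TKO mice. Rps2 alone was at 589 to 753 CPM and at 476 to 541 CPM (log2FC -0.42, SE 0.101, adjusted p = 0.376 with edgeR and 0.0058 with DESeq2), and with its copies the log2FC was -0.07 in edgeR. In that fit 16 genes of chromosome 17 and 3 genes elsewhere passed. The 3 were Gm11249, which was not among the copies summed (adjusted p = 2.9e-04), Pcsk1 (0.0274) and Ighv1-64 (0.0268), and Abca1 no longer passed (0.0674). The exact permutation test on the 5 sums gave p = 0.0286 for Glo1 and Atp6v0c, the smallest possible, 0.0571 for Rnps1, 0.629 for Hmga1 and 0.657 for Rps2, and after adjustment over the 5 families 0.0714 for Glo1 and Atp6v0c, 0.0952 for Rnps1 and 0.657 for the others.

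**Figure D4:**
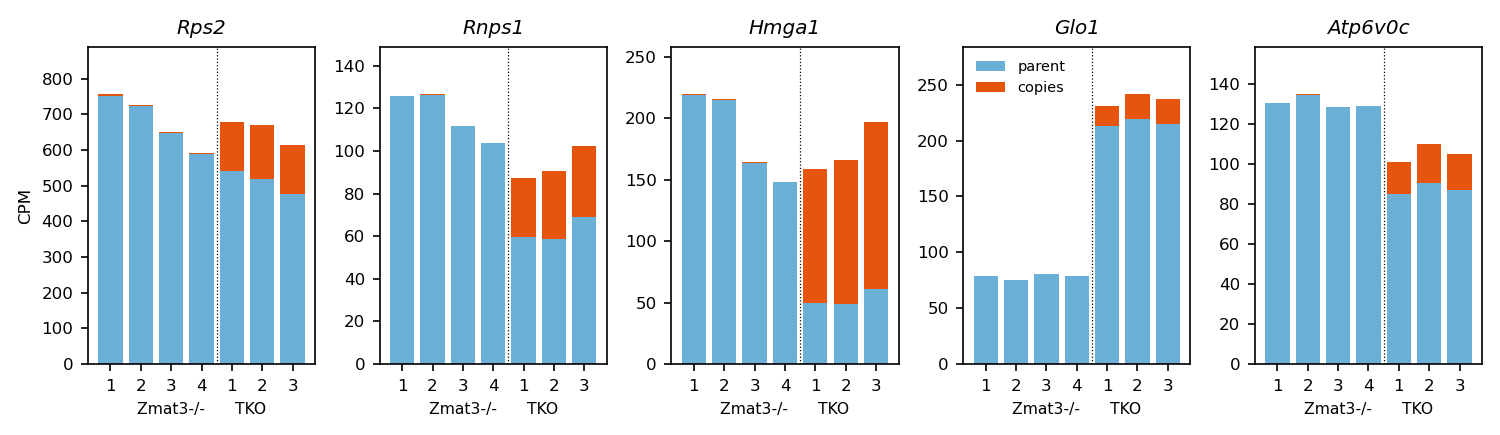
Summed level (CPM) of 5 genes of chromosome 17 (blue) and their copies on other chromosomes (orange) in each Zmat3-/- and TKO mouse. The copies are almost absent from the Zmat3-/- bars and make up from 7.71% (Glo1) to 70.4% (Hmga1) of the TKO bars, and the total bar differs most for Glo1.

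Sharing words with a gene near Cdkn1a did not always go with a call. Of the 23 tested genes off chromosome 17 that share at least 50% of their words with genes of chromosome 17, 10 have their closest partner on that chromosome within 5 Mb of Cdkn1a, and 7 of these passed. Copies low in both groups were not tested, such as Rps2-ps13, which shares 77.9% of its words with Rps2. The filter thus sets part of this share. Rps2-ps10, Rps2-ps6 and Gm11249 share more words with another copy of Rps2 than with Rps2 itself. The 3 others were Gm7143, a further copy of Rps2 (log2FC 1.09, adjusted p = 0.487), Gm10163 (log2FC 0.60) and Rpl10a-ps1 (log2FC -0.05), which holds only words that Rpl10a also has. Gm10163 shares 71.4% of its words with BC004004 of chromosome 17 but 100.0% with Gm10240 on chromosome 15. Of the 13 whose closest partner on chromosome 17 lies farther away, 0 passed with edgeR, at an adjusted p of 0.964 or above, or with DESeq2.

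The 3 genes off chromosome 17 that passed and are not copies of its genes were Abca1, Pcsk1 and Ighv1-64. Abca1 (chromosome 4), which exports cholesterol to apolipoprotein A-I, was at 101, 89.0, 119 and 109 CPM in the Zmat3-/- mice and at 56.5, 73.7 and 65.5 CPM in the TKO mice (log2FC -0.69, SE 0.113, adjusted p = 0.0467). Pcsk1 (chromosome 13), a protease that cleaves prohormones, was at 8.11 to 9.97 CPM and at 16.8, 14.7 and 16.4 CPM (log2FC 0.82, SE 0.116, adjusted p = 0.0176). Ighv1-64 (chromosome 12), an immunoglobulin heavy-chain variable gene, was at 0.0997 to 0.356 CPM and at 2.76, 1.74 and 1.40 CPM (log2FC 3.06, SE 0.42, adjusted p = 0.0153). For Abca1 and Pcsk1 the wt mice, at 31.3 to 93.0 CPM and 7.06 to 17.5 CPM, covered the TKO range, and wt mice 3 and 4, with low Xist, were the upper pair for both genes. In both mutant groups Abca1 was also higher with low Xist. Pcsk1 was not, since its highest Zmat3-/- mouse (9.97 CPM) and highest TKO mouse (16.8 CPM) had high Xist. Abca1 was lost in 5 of the 7 fits that leave out 1 mouse, Pcsk1 in 4 and Ighv1-64 in 3, with adjusted p-values up to 0.192, 0.104 and 0.104. Variable genes are used by single B cell clones and are alike in sequence, and the summed level of the 10 B cell markers was 492 to 562 CPM in the TKO and 495 to 531 CPM in the Zmat3-/- mice. Most of this sum was Ighm, at a mean of 457 CPM in the TKO and 434 CPM in the Zmat3-/- mice, so it says little of the other markers.

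Among the gene groups chosen for the biology of TRP53 and of the thymus, no member passed the edgeR test in any list, and at most 2 members of a list had an unadjusted p under 0.05. The share that passed among all tested genes, 0.221%, comes to less than 1 gene per list, and the medians stand beside that of all tested genes, -0.01 on the log2 scale. Of the 36 TRP53 target genes (other than the targeted ones), 34 were tested, 15 with a positive and 19 with a negative log2FC, with a median of -0.01 and 0 with an unadjusted p under 0.05. Mdm2, the ubiquitin ligase of TRP53, was at a mean of 134 CPM in the TKO and 130 CPM in the Zmat3-/- mice (log2FC 0.02, SE 0.0755), and Ccng1 at 110 and 109 CPM (log2FC 0.00, SE 0.0946). The highest member was Sesn2 (log2FC 0.29, SE 0.192, adjusted p = 0.983), and the lowest Dcxr (log2FC -0.58, SE 0.397, adjusted p = 0.983).

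In the BCL-2 family, 14 of 16 genes were tested and the median log2FC was -0.01. Bcl2l11 (BIM), the BH3-only protein that acts with PUMA in thymocyte death, was at 128, 129, 119 and 135 CPM in the Zmat3-/- mice and at 155, 171 and 144 CPM in the TKO mice. The groups did not overlap, and the log2FC of 0.28 (SE 0.0781) had an unadjusted p of 0.00473 and an adjusted p of 0.615 from edgeR. Bmf, another BH3-only gene, was at 98.5 to 129 CPM and at 130 to 147 CPM (log2FC 0.25, SE 0.0944, adjusted p = 0.983). Of the pro-survival genes, Mcl1 had 0.09 (SE 0.0992), Bcl2 -0.02 (SE 0.0694) and Bcl2l1 -0.01 (SE 0.0969), and Bcl2a1d was the lowest member at -0.32 (SE 0.26). Pmaip1 (NOXA) was at a mean of 8.40 CPM in the TKO and 9.99 CPM in the Zmat3-/- mice (log2FC -0.27, SE 0.167).

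The 10 caspases and apoptosome genes had a median log2FC of 0.00, and the highest was Xiap, an inhibitor of caspases, at 0.10 (SE 0.067). None of the genes listed around the step that p21 controls passed the edgeR test. Of 22 CDK inhibitors, kinases, cyclins and RB-E2F genes, 20 were tested and 15 had a negative log2FC, with a median of -0.05. The range was from -0.15 for Cdk1 (SE 0.149) to 0.08 for Cdkn2c (SE 0.135). Cdkn1b (p27), of the same inhibitor family as p21, was at a mean of 384 CPM in the TKO and 395 CPM in the Zmat3-/- mice (log2FC -0.05, SE 0.0716).

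No gene of the proliferation lists passed, and the sign of their medians depended on single mice. Of the 21 DNA replication genes 20 had a negative log2FC, with a median of -0.05. The highest was Pola1, of the primase complex, at 0.04. Of the 20 mitosis genes 14 had a negative log2FC, with a median of -0.05, from -0.12 (Birc5) to 0.14 (Mki67). Mki67 was at 736, 790, 727 and 577 CPM in the Zmat3-/- mice and at 589, 607 and 1162 CPM in the TKO mice, of which mouse 3 alone lay above the Zmat3-/- range. Without TKO mouse 3 the median was -0.20 for replication and -0.30 for mitosis, without TKO mouse 2 it was 0.03 and 0.05, and without TKO mouse 1 that of mitosis was 0.07.

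Thymocyte genes were close in the 2 groups. Of 18 T cell receptor complex and T-lineage genes, 13 had a positive log2FC, with a median of 0.05, from -0.15 (Cd3g, SE 0.0817) to 0.15 (Tcf7, SE 0.0924). Cd4 was at a mean of 1125 CPM in the TKO and 1087 CPM in the Zmat3-/- mice, and Cd8a at 1682 and 1646 CPM. The median was 0.05 for the 10 double-negative stage genes, -0.0014 for the 8 of them off chromosome 17, 0.05 for the 10 double-positive and 0.03 for the 10 mature single-positive stage genes. Erg, a transcription factor of early progenitors, was the lowest of the first list, at 2.37, 2.48, 1.16 and 1.63 CPM in the Zmat3-/- mice and at 1.23, 1.16 and 0.902 CPM in the TKO mice, with overlap (log2FC -0.83, SE 0.324, adjusted p = 0.983). Ets2, of the double-positive list, was at 448 to 534 CPM and at 546 to 658 CPM (log2FC 0.24, SE 0.0909, adjusted p = 0.983).

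The MHC genes are of interest for their place, since 20 of the 21 genes of that list lie on chromosome 17 after Cdkn1a. None passed, and the median log2FC was 0.00. H2-K1 was at a mean of 355 CPM in the TKO and 344 CPM in the Zmat3-/- mice, and H2-D1 at 384 and 368 CPM. H2-Q7, a class Ib gene with close relatives in the cluster, was the highest, at 58.2 to 71.6 CPM in the Zmat3-/- mice and at 83.5, 87.1 and 68.4 CPM in the TKO mice (log2FC 0.31, SE 0.102, adjusted p = 0.954). The lowest was H2-Ob (log2FC -0.12).

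Of the 28 tested immediate-early genes, 12 had a positive and 16 a negative log2FC, with a median of -0.02. Sik1, a kinase gene of chromosome 17 that lies 2.75 Mb after Cdkn1a, was at 111 to 137 CPM in the Zmat3-/- and at 137 to 150 CPM in the TKO mice (log2FC 0.19, SE 0.0837, adjusted p = 0.983), against 13.3 to 19.5 CPM in the wt mice. The 17 interferon-stimulated genes had a median of 0.04, from -0.12 (Ifi27l2a) to 0.22 (Rsad2), and the 12 DNA damage checkpoint genes a median of 0.03, from -0.11 (Brca1) to 0.09 (Chek2).

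The protein-coding genes of the mitochondrial genome, which encode subunits of the respiratory chain and of ATP synthase, were looked at after their values were seen. All 13 had a negative log2FC, from -0.84 (mt-Atp8) to -0.44 (mt-Co2), with a median of -0.77, and all 13 were negative in each of the alternative fits. With edgeR 0 passed and 3 had an unadjusted p under 0.05 (23.1%), and with DESeq2 0 passed. Their summed level was 102866, 61034, 155284 and 122016 CPM in Zmat3-/- mice 1 to 4 and 80669, 91081 and 35474 CPM in TKO mice 1 to 3, so the groups overlapped and both varied widely. Without TKO mouse 3 the median was -0.38. The wt mice were at 37614 to 58828 CPM, below all Zmat3-/- mice. These genes are read from 1 small genome and are not independent of each other.

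**Figure D5:**
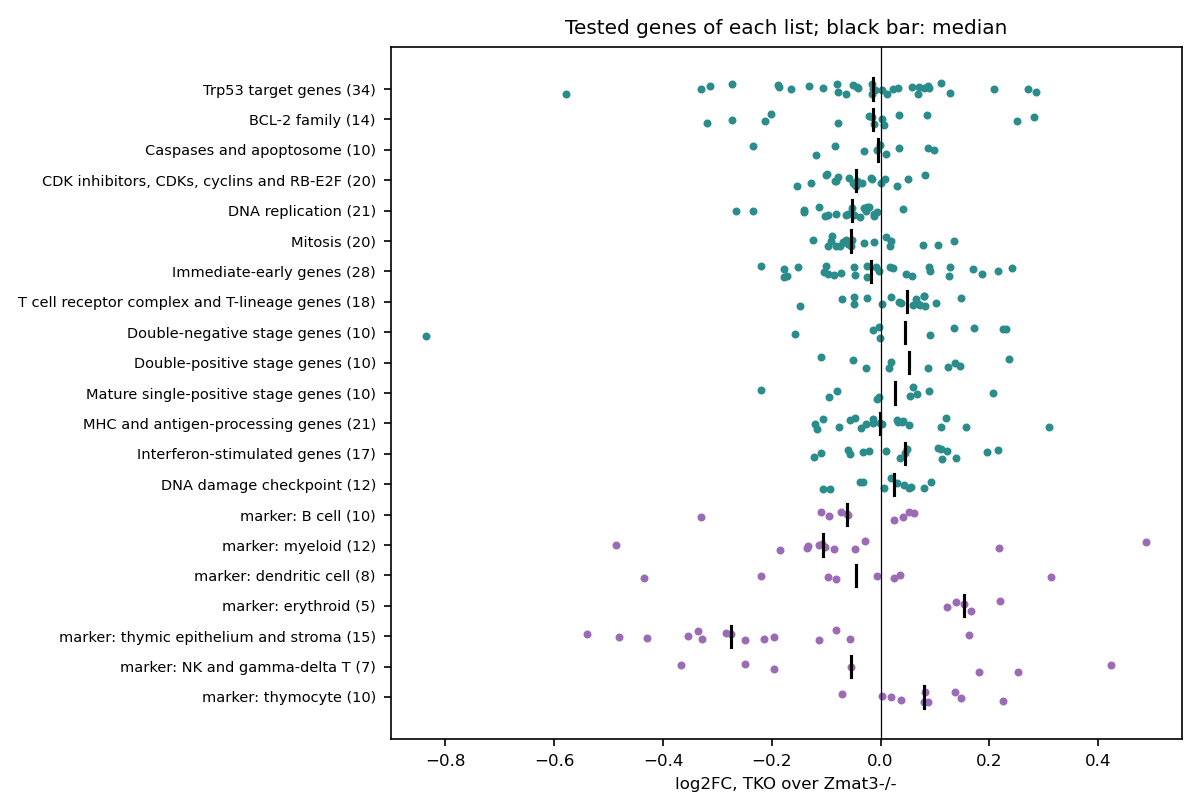
Log2FC of TKO over Zmat3-/- mice for each tested gene of the 14 gene groups (teal) and of the 7 marker lists of cell types (purple), with the number of tested genes in brackets and the median as a black bar. None of the genes shown passed the edgeR test, and the medians of the 14 gene groups lie between -0.05 and 0.05.

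The defining genes of thymocytes were present in all mice, with a summed level of 13050 to 15317 CPM in the TKO and 11841 to 13662 CPM in the Zmat3-/- mice. The markers of other cells were lower by far or uneven: 197 to 272 CPM in the TKO and 254.7 to 282 CPM in the Zmat3-/- mice for the 16 markers of thymic epithelium and stroma, 180 to 447 and 296 to 404 CPM for the 15 myeloid, 29.1 to 40.9 and 26.7 to 41.7 CPM for the 8 dendritic cell, 135 to 158 and 123 to 172 CPM for the 8 NK and gamma-delta T cell, and 2719 to 3730 and 1154 to 5728 CPM for the 7 erythroid markers. No marker was at 0 in all mice of a group. Of the 15 tested stroma markers 14 had a negative log2FC, with a median of -0.28, and 0 passed with edgeR or had an unadjusted p under 0.05. Without TKO mouse 3 that median was 0.12. The part of other cells in the results above was not tested.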

How the data were processed

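RNA-seq of thymocytes from 3 TKO and 4 Zmat3-/- mice was compared, with 4 wt mice as reference, grouped by genotype and number in the labels. The kit (TruSeq RNA v2) does not mark strand. The authors ran the nf-core/rnaseq pipeline, with Salmon as its counter (GRCm38.p6 with a later GENCODE release than the M21 used here for names and positions) and deposited estimated counts per gene, whole numbers without normalization. 54166 of 54418 genes matched M21. The authors used DESeq2 1.40.0 with sex and surrogate variables, and the labels give no sex.

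Genes were tested when 3 or more mice reached 20 counts at the depth of the smallest library. 1628 genes were set aside beforehand (Xist, Y-linked, rRNA and immunoglobulin pseudogenes), close to the classes the study left out. Its class of obsolete Entrez IDs was not applied here. The test was edgeR 4.0.16 (R 4.3.3, limma 3.58.1): TMM, quasi-likelihood F-test, two-sided, Benjamini-Hochberg adjustment over all tested genes. It was tested on simulated data with 200 changed genes, in which 19 of 12924 unchanged genes also passed. TMM factors for the CPM values came from all 11 mice. Standard errors were derived as |log2FC| over the root of the F statistic. Every mouse with at most 3 counts in a group makes a fold a lower bound, set against 3 counts in the smallest library of that group. Words of 31 bases were compared between M21 transcripts.

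Genes are named by a fixed rule: the targeted genes and their nearest tested protein-coding neighbours, every gene with an adjusted p under 0.05, the copy families, and in each list the highest and lowest member and up to 2 others with an unadjusted p under 0.05. Further list members and neighbours in the text (Mdm2, Ccng1, Mcl1, Bcl2, Bcl2l1, Pmaip1, Cdkn1b, Cd4, Cd8a, H2-K1, H2-D1, Unkl, Glp1r, Gm7143, Gm10163, Gm10240, BC004004, Tmem242, Tnfsf14, Gm7334, the mitochondrial genes and Rpl10a-ps1) were chosen after their values were seen. Some members that the rule names are not reported here. The mice, lists and families were chosen with earlier results of these data known. Alternatives were DESeq2 1.42.0, RLE size factors, other filters, all genotypes in one fit, a replicate block, the Xist level, 1 surrogate variable (sva 3.50.0), copies summed with parents, and each mouse left out. Summing every gene that shares at least 50% of its words with a parent was added after seeing the data. Nothing says that the mice were prepared apart, so p-values measure the spread between these samples.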

Additional observations from a re-analysis of the deposited data

Results flagged for a closer look

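Among 129 groups of 4 mice examined, 5 held 1 mouse that lay apart from the others by Dixon's test. The groups reuse the same mice over the named genes, so this number cannot be set against a chance rate. In the Zmat3-/- group, mouse 1 was low for Zfp983, at 19.3 CPM against 22.9 to 23.5 CPM in the others, mouse 2 was low for Btbd9, at 33.8 against 37.0 to 37.4 CPM, and mouse 2 was high for Srsf3, at 631 against 606 to 610 CPM. In the wt group, mouse 4 had 0 CPM of Zscan10 against 0.333 to 0.397 CPM in the others, and mouse 2 had 0.148 CPM of AC154766.1 against 0 in the others. The TKO group, with 3 mice, was too small for this check.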

How the results depend on the processing

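No alternative changed the direction of a gene that passed, in 483 values, and 71 of these no longer passed. On chromosome 17, 19 genes passed, against 38 with DESeq2, 33 without a filter, 8 with all 3 genotypes in one fit and 12 to 17 with 1 mouse left out (12 without Zmat3-/- mouse 2). On other chromosomes, 10 passed, against 35 with DESeq2, 57 without a filter, 3 with the copies summed with their parents and 7 to 17 with 1 mouse left out (17 without TKO mouse 3). With an absolute log2FC above 1.5, the 8 genes of chromosome 17 became 13 and the 8 elsewhere 32 without a filter, and 2 elsewhere with the copies summed, with 7 to 9 and 7 to 10 when 1 mouse was left out. The cause of the differences between tests was not tested. Cdkn1a passed with DESeq2 (log2FC -1.11, adjusted p = 0.0175) and without a filter (log2FC -1.11, adjusted p = 0.0164), and so its call turned on the test and on the filter. Rps2 also passed with DESeq2 (log2FC -0.41, adjusted p = 0.0058). Of 29 genes, 19 passed in all 7 fits that leave out 1 mouse.

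The replicate number as a block left 12 genes on chromosome 17 and 9 elsewhere. Same-numbered TKO and Zmat3-/- mice deviated together at r = 0.196, 0.0124 and 0.173, TKO mouse 2 correlated better with Zmat3-/- mouse 1 than with its own number, and the numbers were not taken to pair the mice.

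All 32 values that changed sign are of genes that did not pass or of a sum near no difference. As log2FC they were, with the block, Cdkn2c -0.013, Pola1 -0.027 and Mki67 -0.022, with 1 surrogate variable Pola1 -0.055, Mki67 -0.097, Ifi27l2a 0.0597 and Srsf3 0.0204, without a filter Srsf3 0.00037 and Sae1 0.0157, and for Sae1 0.0033 with DESeq2, 0.0032 with RLE, 0.0056 with all genotypes and 0.0096 with the Xist level. Over the fits with 1 mouse left out, Cdkn2c ran from -0.0523 to 0.173, Pola1 from -0.131 to 0.155, Mki67 from -0.24 to 0.305, Atf3 from -0.0359 to 0.563, Dtx1 from -0.0023 to 0.365, H2-Ob from -0.214 to 0.0567, Ifi27l2a from -0.469 to 0.176, Brca1 from -0.307 to 0.0313, Srsf3 from -0.042 to 0.0543, Sae1 from -0.0861 to 0.0774, Skil from -0.028 to 0.0872, and the sum of the Rps2 family from -0.117 to 0.00054.

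The 3 TKO libraries differed in depth, and 3 counts correspond to 0.0361 to 0.174 CPM in them. Of 1142 values of named genes under the alternatives, 1037 kept their direction and their side of the threshold.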
